A study of Mus musculus with 18 samples.

Results

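Plasma cell genes were followed in ileum cells of 18 mice, each measured on 1 Agilent one-colour array. The set held 9 genes chosen by name, *Igj* (listed under its current name, *Jchain*), *Mzb1*, *Tnfrsf17*, *Derl3*, *Pou2af1*, *Prdm1*, *Irf4*, *Sdc1* and *Xbp1*, which the array covers with 14 of its 56605 probes. Of these, 8 genes and 12 probes passed the filter, which asked that 5 or more of the 6 arrays of some group be well above background, as did 21542 of 37074 gene names overall. The groups were iPGC1afl/fl mice on chow, iPGC1afl/fl mice on HFD and iPGC1a-/- mice on HFD, with 6 mice each. Mice were 8 weeks old when the diets began and were killed after 8 weeks at ZT 3. The HFD held 42% of its kcal as fat, enriched in saturated milk fat, with 0.2% cholesterol. In iPGC1a-/- mice a Cre driven by the villin promoter removes exons of *Ppargc1a* from intestinal epithelium, a deletion that is not aimed at plasma cells, and the controls are floxed littermates. All strains were on a C57BL6/J background. Cells were released from the ileum with a chelating buffer, which releases epithelium together with immune cells that come away with it. iPGC1a-/- mice on chow were not analysed here.

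Plasma cells are the antibody-secreting end stage of the B cell lineage. In the gut wall most of them make IgA, which is joined into dimers by the J chain and carried across the epithelium by the polymeric immunoglobulin receptor. Prdm1 (Blimp-1) and Irf4 switch off the B cell programme and install the secretory one, Xbp1 enlarges the endoplasmic reticulum, and Mzb1 and Derl3 work there in antibody assembly and in the disposal of misfolded protein. Pou2af1 (OBF-1) is a coactivator of octamer-bound factors in B cells and plasma cells, Sdc1 (CD138) is the classical surface marker, and Tnfrsf17 (BCMA) is a receptor for survival signals. Several of these are shared with other cells of the ileum: *Sdc1*, *Xbp1* and *Prdm1* are also used by epithelium, *Prdm1* and *Irf4* by T cells, and *Pou2af1* and *Irf4* by B cells.

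On each array between 56.3% and 62.3% of spots were well above background, and 0 spots were saturated. Each of 3 slides carried 2 arrays per group. Epithelial markers such as *Vil1* met the detection criterion in 13 of 13 cases in each group, but so did 13 of 13 T cell markers and 13 of 14 B cell markers on chow, so detection alone does not say which cells prevailed. As a check of the labels, *Ppargc1a* was read first: arrays labelled iPGC1a-/- gave no lower signal than those of iPGC1afl/fl mice on HFD, with log2 differences of 0.30 and 0.36 at its 2 probes (adjusted p = 0.572 and 0.495, limma). Whether these probes lie in the deleted exons was not determined, and every direction by genotype refers to the arrays as labelled.

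The question of the first comparison was how the diet altered expression in iPGC1afl/fl mice. Of the 8 plasma cell genes tested, 6 were called lower on HFD than on chow and 0 higher, namely *Jchain*, *Mzb1*, *Pou2af1*, *Prdm1*, *Irf4* and *Derl3*. A call needed an adjusted p of at most 0.05 in limma (Benjamini-Hochberg over all probes) together with a difference of more than 1.5-fold. Among all 21542 gene names tested, 5.58% were called lower and 9.1% in either direction. The median log2 difference of the 8 genes was -0.87, against 0 over all gene names. *Irf4* passed the filter through the chow group alone and therefore adds nothing to this count or median as support. The members were chosen with earlier results of these data known, so setting them against all gene names is a description. The plot of the members by array shows how far the groups were apart.

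**Figure D1:**
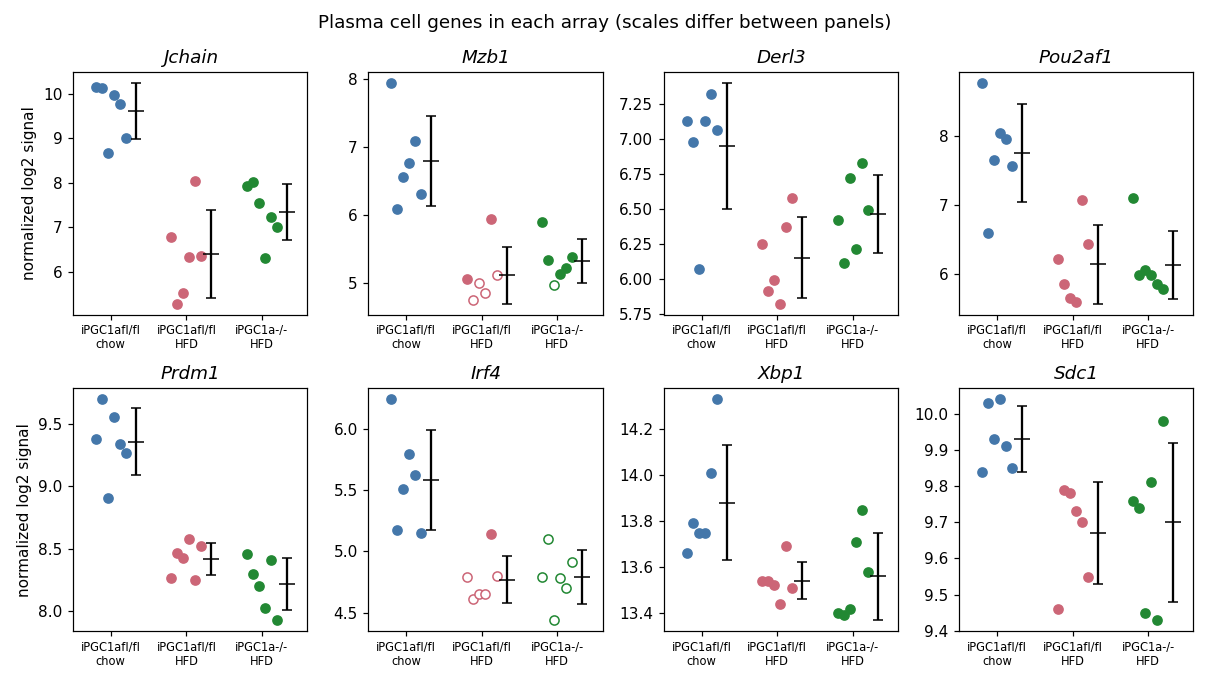
Normalized log2 signal of 8 plasma cell genes at the brightest probe of each, 1 point per array in replicate order within each group of 6, with the mean and SD as a bar beside the points. Filled points are arrays with a signal well above background and open points are not. The chow arrays of *Jchain*, *Mzb1*, *Prdm1*, *Irf4* and *Sdc1* all lie above the iPGC1afl/fl HFD arrays.

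*Jchain*, which encodes the joining chain of dimeric IgA, had the widest difference of the 8. Its single probe lies on chromosome 5 of mm9, chr5:88949919-88949978. On chow its normalized log2 signal ran from 8.67 to 10.15 (median 9.88), on HFD in iPGC1afl/fl mice from 5.28 to 8.04 (median 6.34), and in arrays labelled iPGC1a-/- from 6.31 to 8.01 (median 7.39). Every chow array was above every HFD array of either genotype, while the HFD groups overlapped each other. Means over the 6 mice of a group, with the SD, were 9.62 ± 0.63 on chow, 6.39 ± 0.99 on HFD and 7.34 ± 0.63 in arrays labelled iPGC1a-/-. The level was 9.41-fold lower on HFD in iPGC1afl/fl mice, a log2 difference of -3.23 with a 95% confidence interval from -4.04 to -2.43 (standard error 0.39, adjusted p = 6.47e-06, limma). On the raw scale the median signal was 1061 intensity units on chow and 77 on HFD. Within the 3 slides the log2 difference lay between -3.71 and -2.75.

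In iPGC1afl/fl mice on HFD, replicate 5 gave the highest *Jchain* value, 8.04, and was also the highest of its group for *Mzb1*, *Pou2af1*, *Irf4* and *Xbp1*. On this array the mean log2 signal of 13 B cell markers was 7.14, inside the chow range of 6.59 to 8.34. Without it the *Jchain* difference was -3.58.

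*Mzb1* and *Derl3* serve antibody folding and quality control in the endoplasmic reticulum. *Mzb1*, on chromosome 18, ran from 6.09 to 7.94 on chow (median 6.66), from 4.74 to 5.93 on HFD in iPGC1afl/fl mice (median 5.03) and from 4.97 to 5.89 in arrays labelled iPGC1a-/- (median 5.28). It was well above background on 6 of 6 chow arrays but on 2 and 5 of the 6 arrays of the HFD groups. No HFD array reached the lowest chow array. Its level was 3.2-fold lower on HFD in iPGC1afl/fl mice (log2 difference -1.68, standard error 0.25, adjusted p = 6.11e-05, limma). The size depended on how background was treated, since the background-subtracted signal gave -3.40 and normexp correction -1.04, both still called.

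*Derl3*, a component of the machinery that retrieves misfolded proteins, was well above background on all 18 arrays. Its log2 signal ran from 6.07 to 7.32 on chow (median 7.10), from 5.82 to 6.58 on HFD in iPGC1afl/fl mice (median 6.12) and from 6.11 to 6.83 in arrays labelled iPGC1a-/- (median 6.46). The groups overlapped through chow replicate 3 alone, the lowest chow array, whose neighbour was at 6.98. On HFD it was lower by a log2 difference of -0.79 (standard error 0.18, adjusted p = 0.00329, limma), 1.73-fold lower. After normexp correction it was -0.55, which ended the call on the fold threshold.

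Of the regulators, *Pou2af1* ran from 6.60 to 8.77 on chow (median 7.80), from 5.59 to 7.08 on HFD in iPGC1afl/fl mice (median 6.04) and from 5.79 to 7.10 in arrays labelled iPGC1a-/- (median 5.98). The groups overlapped, because chow replicate 2 lay at 6.60 and 1 array of each HFD group lay near 7.1. The level was 3.08-fold lower on HFD in iPGC1afl/fl mice (log2 difference -1.62, standard error 0.30, adjusted p = 0.000572, limma).

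*Prdm1*, the repressor that ends the B cell programme, had the tightest groups of the 6 called genes. It ran from 8.91 to 9.70 on chow (median 9.36), from 8.25 to 8.58 on HFD in iPGC1afl/fl mice (median 8.45) and from 7.93 to 8.46 in arrays labelled iPGC1a-/- (median 8.25). No HFD array of either genotype reached the chow range. The difference by diet was -0.94 (standard error 0.12, adjusted p = 1.1e-05, limma), 1.92-fold lower, and was between -1.08 and -0.78 within slides.

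*Irf4*, which acts in B cell activation at low dose and in plasma cell formation at high dose, was the tested member with the fewest arrays well above background. The brighter of its 2 probes was well above background on 6 of 6 chow arrays, on 1 of 6 HFD arrays in iPGC1afl/fl mice and on 0 of 6 arrays labelled iPGC1a-/-. It ran from 5.15 to 6.24 on chow (median 5.56) and from 4.61 to 5.14 on HFD in iPGC1afl/fl mice (median 4.72). The difference of -0.81 (standard error 0.15, adjusted p = 0.000719, limma) lay at the edge of detection. It was -2.63 with the background-subtracted signal and -0.40, no longer past the fold threshold, after normexp correction. The second *Irf4* probe was not well above background on any array.

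*Xbp1* and *Sdc1* were lower by less than the fold threshold. *Xbp1*, the factor of the unfolded protein response that builds the secretory apparatus, ran from 13.66 to 14.33 on chow (median 13.77), from 13.44 to 13.69 on HFD in iPGC1afl/fl mice (median 13.53) and from 13.39 to 13.85 in arrays labelled iPGC1a-/- (median 13.50). Its difference by diet was -0.34, with a 95% confidence interval from -0.56 to -0.12 (adjusted p = 0.0253, limma). At 2 dimmer probes the difference was -0.29 and -0.26, neither past the test (adjusted p = 0.265 and 0.427).

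*Sdc1* ran from 9.84 to 10.04 on chow (median 9.92), from 9.46 to 9.79 on HFD in iPGC1afl/fl mice (median 9.71) and from 9.43 to 9.98 in arrays labelled iPGC1a-/- (median 9.75). The chow arrays did not overlap those of iPGC1afl/fl mice on HFD, yet the difference was only -0.26 (95% confidence interval -0.46 to -0.07, adjusted p = 0.0451, limma). Its 2 dimmer probes gave -0.14 and -0.19 (adjusted p = 0.42 and 0.259). With single arrays left out the adjusted p of the brightest probe rose as far as 0.106 for *Sdc1* and 0.0604 for *Xbp1*.

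With the fold threshold set aside, all 8 genes tested were lower on HFD at an adjusted p of at most 0.05, as were 15.7% of all gene names. In 5 of the 8, *Jchain*, *Mzb1*, *Prdm1*, *Irf4* and *Sdc1*, the 6 HFD arrays lay below the 6 chow arrays, which held for 5.31% of all gene names at their brightest probe. Both counts include *Irf4*, which had to differ to pass the filter and is no support for either. *Tnfrsf17* could not be compared. Its only probe was well above background on 1 of 18 arrays, replicate 3 of iPGC1afl/fl on HFD with 64 intensity units, and the group medians of the raw signal were 26, 23 and 21 units. In bulk cells, fewer plasma cells and less of each transcript per plasma cell cannot be told apart. Nor can either be told from a change in the other cells that share several of these genes. How many immune cells came away with the epithelium in each preparation was not measured.

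**Figure D2:**
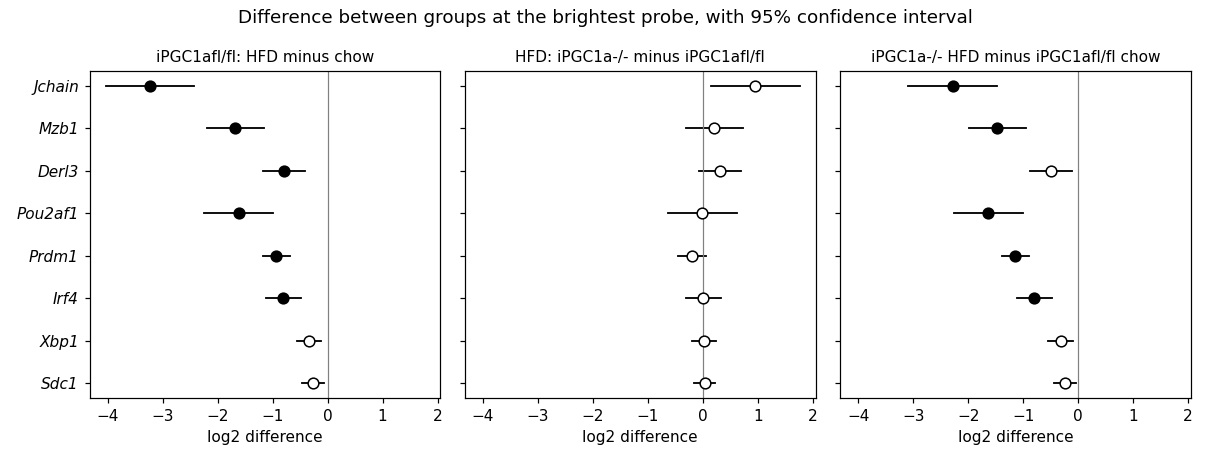
Log2 difference between groups at the brightest probe of 8 plasma cell genes, with its 95% confidence interval from limma, for the 3 comparisons. Filled points passed the adjusted p and the fold threshold; in the left panel 6 are filled, in the middle panel 0 and in the right panel 5.

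The second comparison asked what the loss of *Ppargc1a* in epithelium did on HFD. None of the 8 plasma cell genes was called in either direction (limma, 0 of 8), against 0.162% of all gene names. At an unadjusted p under 0.05 there was 1, *Jchain*, against 13% of all gene names. The median difference was 0.02, against 0.01 over all gene names. *Jchain* was 1.94-fold higher in arrays labelled iPGC1a-/-, with a log2 difference of 0.95 (95% confidence interval 0.15 to 1.76). This did not pass the test after adjustment (adjusted p = 0.459, limma), and a two-sided exact permutation test gave p = 0.0866. The value was higher in the arrays labelled iPGC1a-/- on each of the 3 slides, by 0.50 to 1.39, and lay between 0.73 and 1.29 with single arrays left out.

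For the other members the differences by genotype are given with their 95% confidence intervals. That of *Pou2af1* was -0.01 with an interval from -0.64 to 0.62, and that of *Mzb1* was 0.21 from -0.31 to 0.73. For *Mzb1* this depended on the background, since the background-subtracted signal gave 1.04, outside that interval and not called. *Derl3* was at 0.31 (-0.07 to 0.69) and *Prdm1* at -0.20 (-0.45 to 0.05). *Sdc1* and *Xbp1* were held most closely, at 0.03 (-0.17 to 0.22) and 0.02 (-0.20 to 0.24). The dimmer *Xbp1* probes gave 0.30 and 0.41 (adjusted p = 0.61 and 0.567, limma). For *Irf4*, not well above background on most or all arrays of both groups, no fold is given.

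The third comparison set arrays labelled iPGC1a-/- on HFD against iPGC1afl/fl mice on chow, and shares a group with each of the others. Here 5 of the 8 were called lower and 0 higher, against 7.57% of all gene names called lower. *Irf4*, which passed the filter through chow alone, is again no support for this count. *Jchain* was 4.86-fold lower (log2 difference -2.28, adjusted p = 0.000167, limma), *Mzb1* by -1.47 (adjusted p = 0.000165), *Pou2af1* by -1.64 (adjusted p = 0.00036) and *Prdm1* by -1.14 (adjusted p = 8.54e-07). *Irf4* was lower by -0.8 (adjusted p = 0.000559). With the arrays labelled iPGC1a-/- set at the lowest signal called well above background on each array, *Irf4* was 1.64-fold lower. That value is not a firm lower limit, since normexp correction gave a smaller log2 difference of -0.4. *Derl3*, at -0.49 (adjusted p = 0.0424), stayed under the fold threshold, but passed it without chow replicate 3 (-0.68) or without replicate 5 of the arrays labelled iPGC1a-/- (-0.61). *Xbp1* was at -0.32 (adjusted p = 0.0241) and *Sdc1* at -0.24 (adjusted p = 0.0526).

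The promoters of the 3 members with the largest difference by diet among those in the RefSeq promoter table (GRCm38.p6) are shown to let the regulatory sequence be read beside the values. Each is the 250 bases before the start site, 5′ to 3′ on the strand of the gene, with matches to 3 motifs in capitals: the octamer ATTTGCAT, where Oct factors bind with Pou2af1, the core TGACGTG of the element bound by Xbp1, and GAAAGTG, a core shared by Prdm1 and IRF factors, all sought on both strands. They come from chr5:88527898-88528147, minus strand (*Jchain*), chr9:51213440-51213689, plus strand (*Pou2af1*), and chr10:44458749-44458998, minus strand (*Prdm1*).
Jchain: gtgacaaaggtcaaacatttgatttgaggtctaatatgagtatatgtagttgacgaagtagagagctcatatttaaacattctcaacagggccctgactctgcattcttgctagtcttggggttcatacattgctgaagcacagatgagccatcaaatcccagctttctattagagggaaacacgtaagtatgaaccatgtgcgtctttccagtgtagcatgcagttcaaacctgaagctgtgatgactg
Pou2af1: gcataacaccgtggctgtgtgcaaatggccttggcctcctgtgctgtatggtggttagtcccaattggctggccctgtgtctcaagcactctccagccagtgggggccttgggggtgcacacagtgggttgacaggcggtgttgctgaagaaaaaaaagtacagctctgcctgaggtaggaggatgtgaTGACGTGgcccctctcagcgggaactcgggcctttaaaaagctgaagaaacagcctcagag
Prdm1: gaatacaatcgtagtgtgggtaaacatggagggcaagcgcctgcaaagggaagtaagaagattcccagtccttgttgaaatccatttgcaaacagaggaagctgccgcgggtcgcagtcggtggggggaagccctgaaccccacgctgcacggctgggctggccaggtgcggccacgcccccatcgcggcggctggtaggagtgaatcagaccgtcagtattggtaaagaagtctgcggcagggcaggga
The table held promoters for 8 of the 9 members, and the search ran over all 300 bases of each, 250 before and 50 after the start site. The capitals in *Pou2af1* mark TGACGTG, which begins at position -61 from the start site and occurred in 1 of 8 member promoters and in 2.01% of 32851 promoters. The letters GAAAGTG, read as CACTTTC on the gene's strand, occurred at -179 in *Tnfrsf17* and at -3 in *Irf4*, in 2 of 8 against 4.81% of all promoters. The exact octamer was in 0 of 8 and in 1.74% of all promoters. The promoters of *Jchain* and *Prdm1* held none of the 3 motifs in this window.

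Genes of the wider plasma cell and B cell pathway, in 5 lists, did not all move as the members did. Over all gene names tested, 5.58% were called lower on HFD in iPGC1afl/fl mice and 3.53% higher. In any list, a gene that passed the filter through chow alone had to differ in detection and is no support for its count. Of 10 genes for homing to the gut and IgA transport, 7 were called lower on HFD in iPGC1afl/fl mice and 0 higher, with a median difference of -0.93. Among them were *Itgb7* (-1.71, adjusted p = 7.95e-06, limma), a chain of the gut-homing integrin, *Ccl28* (-1.63, adjusted p = 5.65e-08), the epithelial chemokine that draws IgA plasma cells, and *Tgfbr2* (-1.45, adjusted p = 2.55e-07), a receptor for the cytokine that drives the switch to IgA. *Ccr9*, a receptor for the small-intestinal chemokine Ccl25, was lower by -1.39 (adjusted p = 2.4e-06). *Itgb7* and *Ccr9* are also carried by T cells of the gut. *Pigr*, the polymeric immunoglobulin receptor, was at -0.19 at its brightest probe (adjusted p = 0.174, limma) and was called through its other probe. At the brightest probe 8 of the 10 were lower, while *Ccl25* (0.27, adjusted p = 0.0131) and *Ccr10* (0.18, adjusted p = 0.0607) were higher without being called. Of the 12 homing and transport genes on the array, 9 met the detection criterion on chow, and 7 and 8 in the HFD groups.

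Of 16 genes for surface, survival and late steps, 5 were called lower and 0 higher, with a median of -0.14. *Ly6c1* (-2.01, adjusted p = 9.08e-06, limma), *Tnfrsf13c* (-1.55, adjusted p = 0.00235), the BAFF receptor of B cells, *Cd38* (-1.22, adjusted p = 0.000224) and *Slamf7* (-0.65, adjusted p = 0.000312) led it. The first gene of this list, *Tnfrsf13b* (TACI), was at -0.13 at its brightest probe (adjusted p = 0.173) and was called through its other probe. At the brightest probe 11 of the 16 were lower. *Ell2* (0.49, adjusted p = 0.021, limma), *Fcrl5* (0.48, adjusted p = 0.0512) and *Zbtb20* (0.39, adjusted p = 0.0164) were higher without being called. In the third comparison 5 of the 16 were called lower and 2 higher, *Ell2* and *Fcrl5*, against 7.57% and 5.77% of all gene names.

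Of 8 factors of the B cell programme before plasma cells, 3 were called lower, *Ebf1* (-1.25, adjusted p = 0.0049, limma), *Ciita* (-1.16, adjusted p = 0.00782) and *Irf8* (-0.88, adjusted p = 1.44e-05), and 0 higher. *Pax5*, the factor of B cell identity, was at 0.01 (adjusted p = 0.953), and the list median was -0.29.

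The largest list, 31 secretory pathway and endoplasmic reticulum genes that epithelium also uses, had 2 genes called lower and 1 higher. That was 6.45% called lower, near the 5.58% of all gene names. *Txndc5* fell by 0.73 (adjusted p = 2.47e-05, limma) and *Sec11c* fell by 0.66 (adjusted p = 6.58e-06), while *Herpud1*, at 0.50 at its brightest probe (adjusted p = 0.044), was called higher through another probe. The first gene of the list that passed the filter, *Fkbp2*, was at -0.08 (adjusted p = 0.506), and the list median was -0.21. Of 13 immunoglobulin constant region genes sought by name, 1 was found, *Ighg3*, at -0.98 (adjusted p = 0.00776). By genotype, 0 genes of any of the 5 lists were called in limma, against 0.162% of all gene names.

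**Figure D3:**
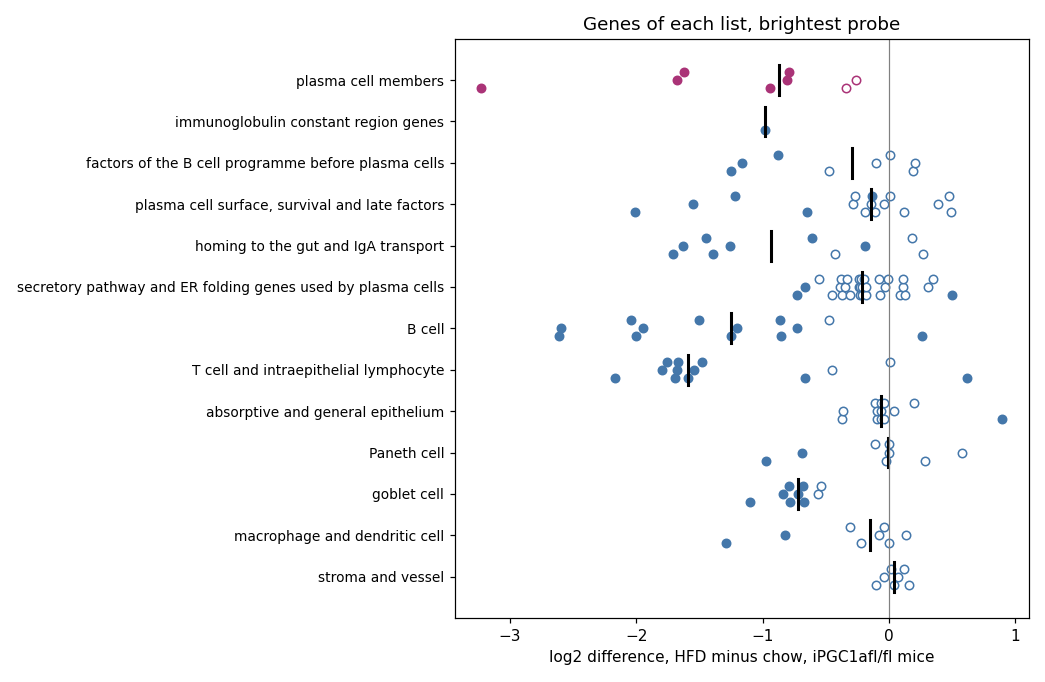
Log2 difference on HFD against chow in iPGC1afl/fl mice for every tested gene of the plasma cell set (purple), the 5 related lists and the 7 cell type lists (blue), at the brightest probe, with the list median as a black line. Filled points are genes called through any probe, so that a few filled points lie close to 0 or above it. Of the B cell markers 12 of 13 and of the stroma genes 0 of 7 were called lower. A gene that passed the filter through chow alone is no support for the count of its list.

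Markers of other cell types moved with the diet as well. The shares over all gene names tested were 5.58% called lower and 3.53% called higher. Of 13 B cell markers 12 were called lower and 0 higher, with a median of -1.25, as were 10 of 13 markers of T cells and intraepithelial lymphocytes, with 1 higher and a median of -1.59. Their mean log2 signal ran from 6.59 to 8.34 on chow, from 5.46 to 7.14 on HFD in iPGC1afl/fl mice and from 5.88 to 6.77 in arrays labelled iPGC1a-/- for B cells. For T cells, over the 12 markers with a value on every array, it ran from 9.26 to 10.49, 8.58 to 9.09 and 8.58 to 9.27. Of the B cell markers on the array, 13 of 14 met the detection criterion on chow, and 9 and 10 of 14 in the HFD groups. Any marker that passed the filter through chow alone had to differ in detection and is no support for the B cell count or median. The count also holds *Cd22*, which was at 0.26 at its brightest probe (adjusted p = 0.163, limma) and was called lower through its other probe. Goblet cell markers were called lower in 7 of 9 (median -0.72), Paneth cell markers in 2 of 8 (median -0.01) and macrophage and dendritic cell markers in 2 of 8 (median -0.15). Epithelial markers had 0 of 13 called lower and 1 called higher (median -0.06), and stroma 0 of 7 called in either direction (median 0.04). Whether the shift of these markers and that of the plasma cell genes share a source was not tested.

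The 18 arrays also showed which members varied together from mouse to mouse, once each group's mean was subtracted. *Pou2af1* and *Mzb1* ran closely together (Pearson r = 0.878, n = 18 arrays), as did *Mzb1* and *Irf4* (r = 0.857). With the mean of the B cell markers, r was 0.934 for *Pou2af1*, 0.912 for *Mzb1* and 0.817 for *Irf4*. *Jchain* stood between, at 0.66 with the B cell markers and 0.593 with the T cell markers, and at 0.552 with *Mzb1*. *Prdm1* (r = -0.105) and *Derl3* (r = 0.347) followed the B cell markers less. *Sdc1* had its highest r with the epithelial markers, 0.758, and *Xbp1* was at -0.638 with the T cell markers. These correlations share arrays, normalization and, for *Mzb1* and *Irf4*, signals near background, and are given as a description.

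**Figure D4:**
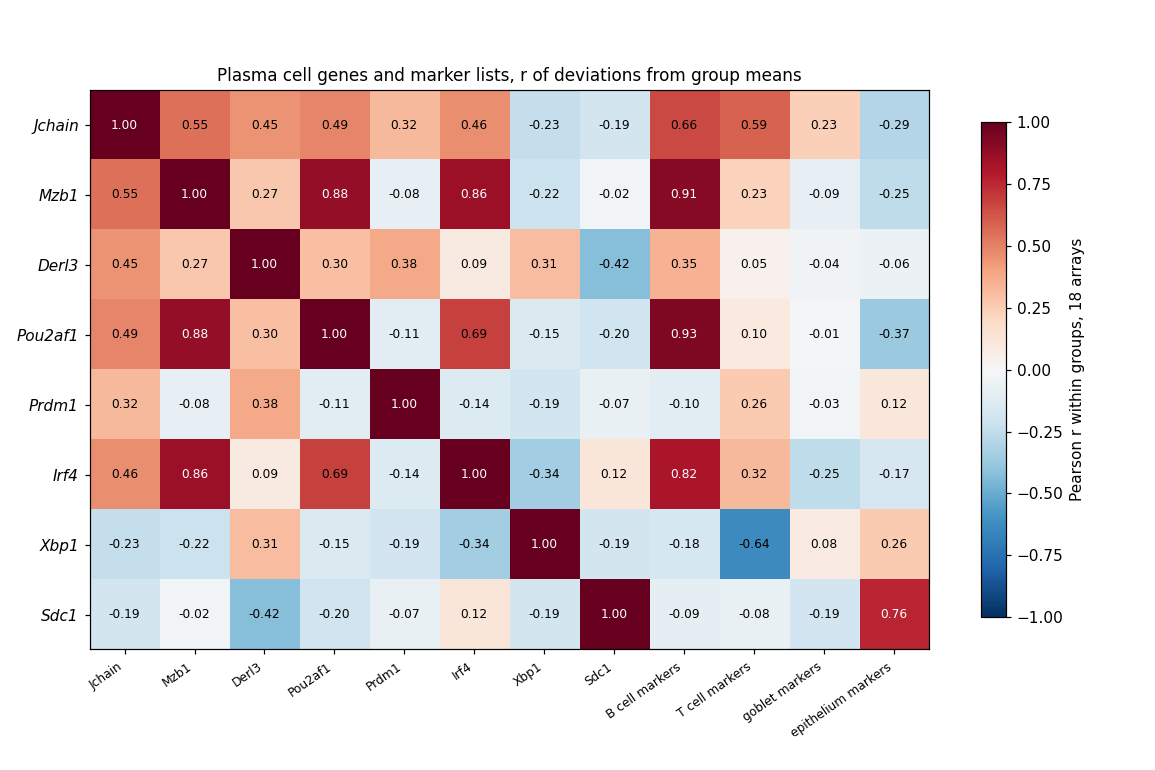
Pearson r between plasma cell genes (rows) and between them and the mean of 4 marker lists (last columns), over 18 arrays after subtraction of each group's mean. *Pou2af1*, *Mzb1* and *Irf4* reach 0.934, 0.912 and 0.817 with the B cell markers, *Prdm1* -0.105, and *Sdc1* reaches 0.758 with the epithelium markers.

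In the plot against the B cell markers the same contrast is seen without subtraction of the means. Chow replicate 2 had the lowest B cell marker level of its group, 6.59, and the lowest *Pou2af1* value, 6.60, but a *Jchain* value of 10.14 and the highest *Prdm1* value, 9.70. HFD replicate 5 of iPGC1afl/fl had a B cell marker level of 7.14 and a *Pou2af1* value of 7.08, both within the chow range, while its *Jchain* and *Prdm1* values stayed below every chow array.

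**Figure D5:**
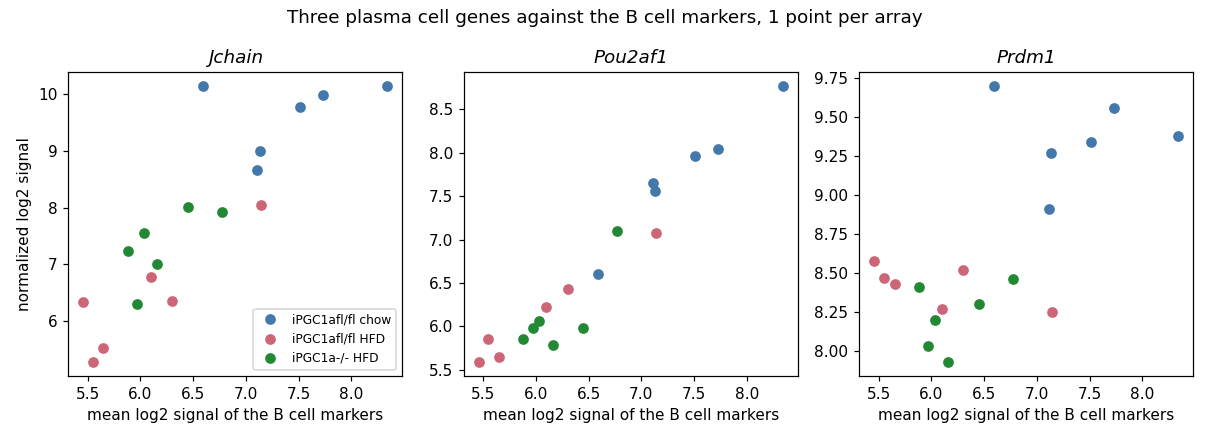
Normalized log2 signal of *Jchain*, *Pou2af1* and *Prdm1* (vertical axes) against the mean log2 signal of 13 B cell markers (horizontal axes), 1 point per array, coloured by group. *Pou2af1* follows the B cell markers across the groups, while every chow array of *Jchain* and *Prdm1* lies above every HFD array, also where the B cell levels overlap between 6.59 and 7.14.

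Among 21468 gene names, the 10 whose brightest probe followed *Jchain* most closely in the same way were all lower on HFD in iPGC1afl/fl mice. The file names 7 of them only by a transcript identifier, which was not paired with a gene symbol here. The closest was ENSMUST00000178282 (r = 0.975, n = 18 arrays, difference by diet -3.64). The named ones were LOC102642252 (r = 0.902, -2.45), *Lcp1*, an actin-bundling protein of leukocytes (r = 0.876, -1.28), and *Cd52*, a lymphocyte surface glycoprotein (r = 0.858, -1.94). None of the other members was among these 10.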

How the data were processed

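The authors deposited, for each of 18 arrays, spot intensity values from Agilent Feature Extraction 10.10.1.1, not normalized between arrays, and a table of log2 values for 33095 probes that they had filtered, batch-corrected and qsmooth-normalized. That batch correction was not repeated, because the labels do not give the batches. Control spots and 46 to 153 outlier spots an array were dropped and repeated spots averaged. In R 4.3.3 the median signals were put on the log2 scale and normalized by a reimplementation of qsmooth with a window of 0.05, for the 32726 probes that 5 or more of the 6 arrays of some group showed well above background. Groups were compared with limma 3.58.1 in one model of 3 groups with Benjamini-Hochberg adjustment. Each gene is represented by its brightest probe. A call required that any probe of the gene reach an adjusted p of at most 0.05 and differ by more than 1.5-fold. Fold changes near background understate the true ones. The array files give probe positions on mm9. The median standard error of a log2 difference was 0.104, and the number of arrays limits the precision. The procedure was tested on simulated data.

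The members and lists were chosen with earlier results of these data known. Genes of the lists are named when called in the diet or genotype comparison, up to 4 per list by size, with the first tested gene of each list, and the 10 genes most like *Jchain*. Replicate numbers came from the labels and enter only as a block in an alternative fit. Alternatives were other background corrections and scalings, the authors' table, other filters and thresholds, slide or replicate number as a block, other variance models, averaged probes and each array left out. Plots were drawn with matplotlib 3.10.9.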

Additional observations from a re-analysis of the deposited data

Results flagged for a closer look

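In 24 groups of 6 arrays (8 genes in 3 groups), 4 held an array whose gap to its neighbour, divided by the range of the group, exceeded Dixon's 95% critical value, where chance flags about 1 group in 20. In arrays labelled iPGC1a-/-, replicate 1 of *Pou2af1* lay at 7.10 with the next at 6.06, a gap of 0.799 of the range. On chow, replicate 3 of *Derl3* lay at 6.07 with the next at 6.98 (0.727). In iPGC1afl/fl mice on HFD, replicate 5 stood apart for *Mzb1*, at 5.93 with the next at 5.11 (0.687), and for *Irf4*, at 5.14 with the next at 4.80 (0.647). For these *Mzb1* and *Irf4* groups most of the other arrays were not well above background.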

How the results depend on the processing

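Over 13 alternatives and 18 arrays left out in turn, the count of members called lower by diet ran from 4 to 8 around the main 6, and stayed at 6 with any array left out. By genotype it was 0 throughout in limma. For iPGC1a-/- on HFD against chow the main count of 5 became 3 where only probes well above background on all arrays were kept, since *Mzb1* and *Irf4* were then not tested, and ran from 5 to 6 with arrays left out. Of 714 values of single members under the alternatives, 709 kept their call and 0 reversed a called direction; in 23, all by genotype and uncalled, the sign differed. Normexp correction ended the calls of *Derl3* by diet (-0.55) and of *Irf4* by diet and in the third comparison (both -0.40). With the replicate number as a block the counts were 6, 0 and 5, the same as without it; deviations of same-numbered arrays correlated from -0.217 to 0.346, so that not every pair correlated positively, while 4, 3 and 1 of 6 numbers matched their own number best in the pairs of groups, a hint from the data and not from the design. Over all genes, the counts called were 1960, 35 and 2868 in the 3 comparisons. They were 3006 by diet and 4491 in the third comparison with the background-subtracted signal, and 5876, 58 and 8988 without the fold threshold. Signal over background limits *Irf4*, *Mzb1* and *Tnfrsf17*, whose differences depend on the background treatment or could not be measured.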

Other observations

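Immunoglobulin probes that carry a gene name were looked up after the values of the members were known. Of 11 probes named for *Igh-VJ*, *Ighg*, *Ighv*, *Igkv* or *Iglv* genes, 6 were tested. Over all gene names 5.58% were called lower, a share counted by gene through any probe and not by probe. A probe that passed the filter through chow alone had to differ in detection and is no support for the count here. Of the 6 probes tested, 4 were called lower on HFD in iPGC1afl/fl mice and 0 higher. They were a probe of *Igh-VJ558* (-2.70, adjusted p = 2.66e-06, limma), *Iglv1* (-1.67, adjusted p = 3.21e-05), *Ighv1-33* (-1.12, adjusted p = 7.72e-06) and *Ighg3*, the constant region gene given above (-0.98, adjusted p = 0.00776). Another *Igh-VJ558* probe was at -0.03 and *Igkv4-72* at 0.14. Immunoglobulin segments share sequence, so these probes may read more than the named gene. By genotype 0 of the 6 were called in limma, with differences from -0.17 to 0.49.

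The genes that followed *Pou2af1* most closely within groups, also looked up afterwards, were *Ebf1* (r = 0.965, n = 18 arrays), *Ms4a1* (r = 0.953), *Vpreb3* (r = 0.951) and *Tnfrsf13c* (r = 0.95), genes of B cells, and by diet they differed by -1.25, -2.00, -1.68 and -1.55 on the log2 scale.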
